A study of Homo sapiens with 27 samples.

Results

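This report describes 40 human genes that work in mitosis and cytokinesis, measured in A549 cells, an established lung adenocarcinoma line, after transfection with a small interfering RNA (siRNA) against the splicing factor SRSF1. The genes were taken from a list of Ensembl IDs, with the kinesins left out except CENPE, which is itself a kinesin motor of the kinetochore. Of the 40 genes, 35 had rows among the 16733 genes of the deposited table. CCNA2, PLK1, NDC80, SPC24 and TOP2A had none and were not analysed here. The experiment had 3 conditions, all in A549 cells: the transfection vehicle Lipofectamine alone, a scramble siRNA that targets no cellular mRNA, and the siRNA against SRSF1. Each condition had 3 biological replicates, and each replicate was hybridized 3 times to the HTA 2.0 array, which carries probes for exons and for exon junctions. The labels number samples and replicates, and the sample number was read here as the biological replicate, which the sources do not settle. The methods do not say whether these replicates came from separate cultures, so the p-values measure the spread between these samples.

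Entry into mitosis is driven by the kinase CDK1 bound to B-type cyclins, and the CDC25 phosphatases switch that kinase on. Chromosomes are then caught by kinetochores, the spindle checkpoint holds the cell until all are attached, and the anaphase-promoting complex, with its activator CDC20, starts the separation of sister chromatids. Cytokinesis follows at the central spindle and midbody. In proliferating cells many of these genes are transcribed mainly in G2 and M phase, when FOXM1 and the B-MYB complex bind their promoters, often through an element called the cell cycle genes homology region (CHR).

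Every value below is a log2 signal. For each splicing event the table gives a reference path, which holds the probes common to both isoforms, and the alternative paths 1 and 2. The level of a gene is the mean log2 signal of its reference paths, averaged over the 3 hybridizations of a replicate. Such levels compare samples for a gene and are not compared between genes. Array medians ranged from 6.23 to 6.33 over the 27 hybridizations. Pairs of hybridizations correlated at 0.9851 on average within a replicate, at 0.9839 within a condition and at 0.9717 between conditions. The table does not pair its IDs with names, so the level of SRSF1 itself, A549 markers and most other mitotic genes were not analysed here, and the label SRSF1 siRNA is taken as given.

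SRSF1 siRNA was set against scramble siRNA to ask which of these genes change when SRSF1 is silenced. Of the 35 genes, 34 fell, 0 rose and 1, CDC25B, did not pass the test (limma, Benjamini-Hochberg adjusted p under 0.05). Over all 12550 genes tested, 27% were called lower and 28.5% higher. A fall of more than 2-fold was called in 28 of the 35, and in 2.74% of all genes. When a gene's level averaged all its paths, alternative paths included, 19 of the 35 fell more than 2-fold. In 34 of the 35, every replicate with SRSF1 siRNA lay below every replicate with scramble siRNA, which held for 30.2% of all genes. The median log2 change of the 35 genes was -1.24, and that of all genes tested was 0.04. Ranked by log2 change from the largest fall, 10 of the 35 stood among the first 100 of the 12550 genes and 29 among the first 500. SPC25, CDC25C and HMMR passed the filter on low levels only through the control samples, since all their SRSF1 siRNA replicates lay below the threshold of 5.77. The counts above include these genes, although a gene that passes in this way is likely to show a fall. These are bulk samples, so fewer cells in mitosis and less of each mRNA per cell cannot be told apart.

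**Figure D1:**
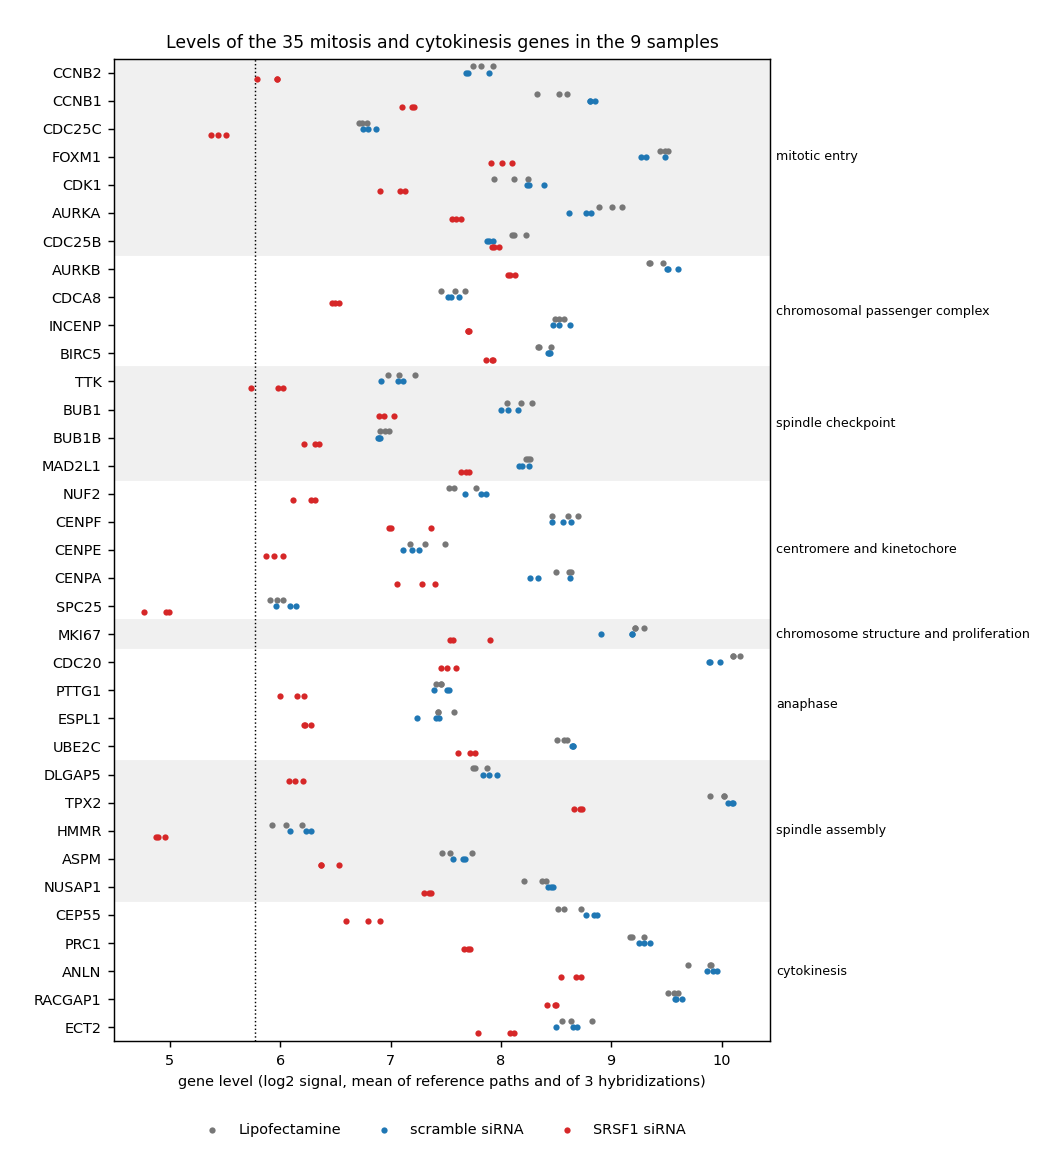
Gene level (log2 signal, x axis) of the 35 genes with rows, grouped by role. Each point is a biological replicate (mean of 3 hybridizations; grey Lipofectamine, blue scramble siRNA, red SRSF1 siRNA), and the dotted line marks the filter threshold of 5.77. In 34 genes the 3 red points lie below the 3 blue points; in CDC25B they overlap.

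Averaged over the 35 genes, the level was 8.19, 8.30 and 8.25 in Lipofectamine replicates 1 to 3, 8.30, 8.25 and 8.22 with scramble siRNA, and 7.08, 7.05 and 6.95 with SRSF1 siRNA. Both control conditions overlapped, and the SRSF1 siRNA replicates stood more than 1 log2 unit below them. The median over all genes tested stayed between 7.17 and 7.21 in the 9 samples.

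**Figure D2:**
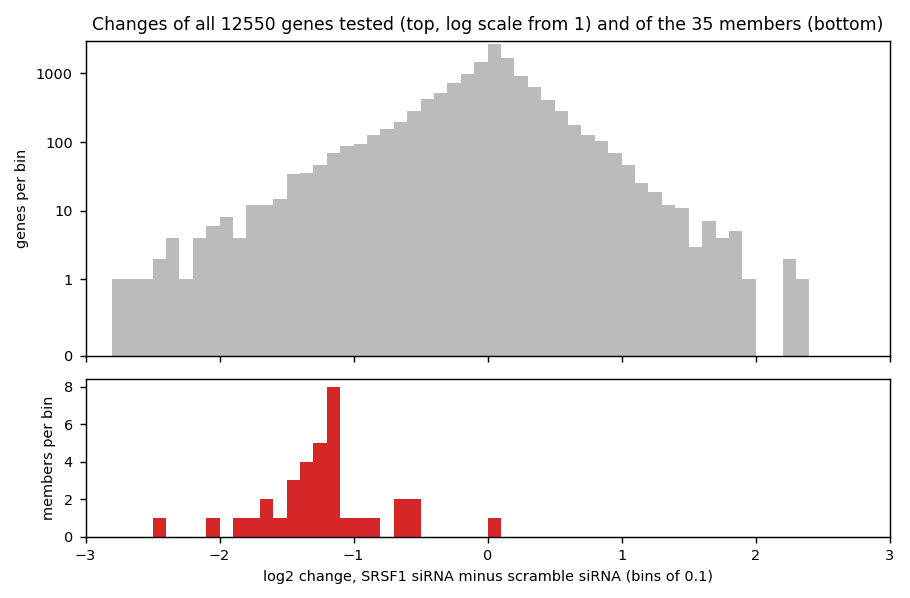
Number of genes per bin (y axis; log scale from 1 in the upper panel, linear in the lower) by log2 change of SRSF1 siRNA minus scramble siRNA (x axis, bins of 0.1), for all 12550 genes tested (grey) and the 35 mitosis and cytokinesis genes (red). All genes ranged from -2.70 to 2.35, and 28 of the 35 lie below -1, a range that held 344 genes in all.

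The largest falls were in CDC20, the activator of the anaphase-promoting complex, CEP55, a midbody protein of abscission, CCNB2, a B-type cyclin, and DLGAP5, a spindle protein also called HURP. CDC20 (ENSG00000117399) lay at 10.10, 10.10 and 10.17 with Lipofectamine, at 9.99, 9.88 and 9.89 with scramble siRNA and at 7.59, 7.51 and 7.46 with SRSF1 siRNA. The SRSF1 siRNA samples were far below both controls, and the log2 change against scramble siRNA was -2.40 (SE 0.05, limma adjusted p 4.96e-11), a 5.29-fold fall and the 5th largest of the 12550 genes. With the mean of all paths the change of CDC20 was -1.47 (limma adjusted p 3.75e-11), and that of CEP55, then the largest of the 35, was -1.50. For CEP55 (ENSG00000138180) the levels were 8.51, 8.73 and 8.58 with Lipofectamine, 8.85, 8.87 and 8.78 with scramble siRNA and 6.80, 6.91 and 6.59 with SRSF1 siRNA. Its log2 change of -2.06 (SE 0.08, limma adjusted p 1.35e-09) was a 4.18-fold fall. No replicate of either gene overlapped between SRSF1 siRNA and a control.

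Promoter sequences were looked at because 34 of the 35 genes moved the same way. RefSeq windows (GRCh38.p14), from 250 bases before to 50 bases after the gene start, were matched by symbol for 33 of the 40 genes; those without a match were AURKA, TTK, BIRC5, FOXM1, TPX2, RACGAP1 and UBE2C. The CHR, searched as TTTGAA or TTCGAA on both strands, was present in 25 of the 33 windows (75.8%) and in 16.4% of all 35116 windows of the table, which cover coding and noncoding genes. The CCAAT box, bound by NF-Y, was present in 26 of 33 (78.8%) and in 34.6% of all windows, and both elements in 21 of 33 (63.6%) and in 6.38%. An E2F-like TTTNGCGC was present in 2 of 33 (6.06%), CDK1 and NUSAP1, and in 1.79% of all windows. None of these motifs contains another. The 33 windows include those of CCNA2, PLK1, NDC80, SPC24 and TOP2A, which had no expression rows. The shares are therefore not those of the genes measured. A match of letters is a description and not evidence of binding. Only the first window listed for a symbol was searched for these genes, so an absent match holds for that window alone. CCNB1, AURKB, CENPE, CDC25C, CDC25B and PTTG1 had rows and no CHR in the window; CENPE, CDC25C and CDC25B held none of the motifs searched, and of these CENPE and CDC25C fell with SRSF1 siRNA while CDC25B was not called.

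Genes to show were picked from the largest falls by asking for a CHR in the 120 bases before the start. Its presence there is thus no separate result. CCNB1, with the next largest fall after the genes shown, held no CHR in its window. These 120 bases are shown for the 4 largest falls and for CDC25B, which did not fall and held neither CHR nor CCAAT box. They run 5′ to 3′ on the strand of the gene, and capitals mark CHR and CCAAT matches of either strand. In CDC20 the CHR began 65 bases before the start and in CCNB2 29 bases before it. In CEP55 and DLGAP5 it lay on the other strand, as TTCAAA, 116 and 109 bases before the start.
CDC20 (chr1:43358861-43358980, plus strand): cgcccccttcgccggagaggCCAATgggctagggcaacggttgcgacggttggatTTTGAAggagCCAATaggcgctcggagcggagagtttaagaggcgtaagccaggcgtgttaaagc
CEP55 (chr10:93496492-93496611, plus strand): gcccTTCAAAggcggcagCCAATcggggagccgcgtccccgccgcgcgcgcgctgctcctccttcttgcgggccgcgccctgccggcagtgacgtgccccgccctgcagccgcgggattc
CCNB2 (chr15:59105026-59105145, plus strand): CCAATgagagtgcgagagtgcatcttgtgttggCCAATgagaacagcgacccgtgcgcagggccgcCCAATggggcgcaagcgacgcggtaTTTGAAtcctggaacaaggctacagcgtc
DLGAP5 (chr14:55191586-55191705, minus strand): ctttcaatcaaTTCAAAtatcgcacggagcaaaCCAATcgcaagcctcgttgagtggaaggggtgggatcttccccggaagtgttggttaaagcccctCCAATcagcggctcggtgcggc
CDC25B (chr20:3786831-3786950, plus strand): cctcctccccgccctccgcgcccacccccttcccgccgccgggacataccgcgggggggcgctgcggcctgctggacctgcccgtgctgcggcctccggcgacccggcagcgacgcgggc

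Among the genes of mitotic entry, 6 of 7 fell, each more than 2-fold (5 with the mean of all paths), with a median log2 change of -1.35 over the 7. CCNB2 (ENSG00000157456) fell most, from 7.90, 7.68 and 7.70 with scramble siRNA to 5.97, 5.97 and 5.79 with SRSF1 siRNA, beside 7.75, 7.92 and 7.82 with Lipofectamine. Its log2 change was -1.85 (SE 0.07, limma adjusted p 1.53e-09). CCNB1, the main mitotic cyclin, fell by 1.65 on the log2 scale, and its partner kinase CDK1 fell by 1.26. AURKA, a kinase of centrosomes and spindle poles, fell by 1.14, and FOXM1, the transcription factor of the G2 and M genes, fell by 1.35. The phosphatases of CDK1 parted: CDC25C (ENSG00000158402) fell by 1.36 (95% interval -1.48 to -1.25), whereas CDC25B (ENSG00000101224) changed by 0.05 (-0.06 to 0.15). CDC25C passed the filter on low levels only through the control samples, so the filter itself favoured a fall of this gene. CDC25B lay at 8.12, 8.23 and 8.10 with Lipofectamine, at 7.93, 7.89 and 7.88 with scramble siRNA and at 7.92, 7.99 and 7.94 with SRSF1 siRNA. The SRSF1 siRNA and scramble siRNA replicates overlapped (SE 0.05, limma adjusted p 0.419), and both sets lay below every Lipofectamine replicate.

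All 4 genes of the spindle checkpoint fell, with a median log2 change of -0.86, and 2 of them more than 2-fold (0 with the mean of all paths). TTK (ENSG00000112742), the kinase also called MPS1 that starts the checkpoint signal, showed the largest fall. It lay at 6.98, 7.22 and 7.07 with Lipofectamine, at 7.12, 7.07 and 6.92 with scramble siRNA and at 5.98, 6.02 and 5.74 with SRSF1 siRNA, a log2 change of -1.12 (SE 0.09, limma adjusted p 2.91e-07). The smallest was that of MAD2L1 (ENSG00000164109), which binds and holds CDC20. Its levels were 8.25, 8.23 and 8.27 with Lipofectamine, 8.25, 8.19 and 8.16 with scramble siRNA and 7.64, 7.68 and 7.71 with SRSF1 siRNA. The change of -0.52 (SE 0.05, limma adjusted p 9.01e-07) was smaller than that of TTK, yet every SRSF1 siRNA sample lay below every control sample. BUB1, a kinase of the kinetochore, fell by 1.12, and BUB1B, the checkpoint protein BubR1, fell by 0.60 (-0.93 with the mean of all paths).

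At the centromere and kinetochore, 5 of 5 genes fell, with log2 changes from -1.55 to -1.15, each more than 2-fold. With the mean of all paths all 5 were still called lower, but only 2 of them, NUF2 and CENPF, more than 2-fold, and SPC25 changed by -0.63. NUF2 (ENSG00000143228) and SPC25 (ENSG00000152253), subunits of the NDC80 complex that holds microtubules, marked both ends. NUF2 lay at 7.53, 7.77 and 7.58 with Lipofectamine, at 7.82, 7.87 and 7.67 with scramble siRNA and at 6.32, 6.28 and 6.11 with SRSF1 siRNA (SE of the change 0.08, limma adjusted p 9.57e-09). SPC25 lay at 5.91, 6.03 and 5.97 with Lipofectamine, at 6.14, 6.09 and 5.96 with scramble siRNA and at 4.96, 5.0 and 4.77 with SRSF1 siRNA (SE 0.07, limma adjusted p 3.64e-08). As given above, SPC25 passed the filter on low levels only through the control samples. In both genes every SRSF1 siRNA sample was below every control sample. CENPA, the histone H3 variant of centromeres, fell by 1.16, the motor CENPE fell by 1.24 and the kinetochore protein CENPF fell by 1.44.

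The chromosomal passenger complex, a kinase with its scaffold and targeting subunits, fell in 4 of 4 genes with a median log2 change of -0.95, and 2 of them fell more than 2-fold (1 with the mean of all paths). Its kinase AURKB (ENSG00000178999) lay at 9.35, 9.35 and 9.47 with Lipofectamine, at 9.60, 9.51 and 9.50 with scramble siRNA and at 8.09, 8.13 and 8.06 with SRSF1 siRNA, a change of -1.45 (SE 0.05, limma adjusted p 8.63e-10). BIRC5 (ENSG00000089685), the subunit called survivin, had the smallest mean change over reference paths. It lay at 8.34, 8.46 and 8.34 with Lipofectamine, at 8.43, 8.45 and 8.44 with scramble siRNA and at 7.92, 7.93 and 7.86 with SRSF1 siRNA, a change of -0.53 (SE 0.05, limma adjusted p 1.17e-06). In both genes every SRSF1 siRNA sample lay below every control sample, and in BIRC5 the controls overlapped. The call for BIRC5 depends on the averaging of its reference paths: with the path of the highest signal alone the change was 0.04 and was not called (limma adjusted p 0.625). The scaffold INCENP fell by 0.84 and CDCA8, the subunit borealin, fell by 1.06.

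The 4 genes of anaphase promotion and sister separation fell too, and 3 of them more than 2-fold (2 with the mean of all paths). After CDC20, PTTG1, the separase inhibitor securin, fell by 1.36 and ESPL1, separase itself, fell by 1.13. UBE2C (ENSG00000175063), a ubiquitin-conjugating enzyme of the anaphase-promoting complex, had the smallest change of the path averages, with levels of 8.58, 8.51 and 8.60 with Lipofectamine, 8.64, 8.66 and 8.65 with scramble siRNA and 7.77, 7.72 and 7.62 with SRSF1 siRNA. Its change was -0.95 (SE 0.05, limma adjusted p 1.66e-08), with every SRSF1 siRNA sample below every control sample. With its reference path of the highest signal alone the change was -2.00, so its place in the group depends on the averaging.

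Spindle assembly genes fell in 5 of 5 cases, each more than 2-fold, with a median log2 change of -1.29. DLGAP5 (ENSG00000126787) lay at 7.75, 7.87 and 7.77 with Lipofectamine, at 7.96, 7.89 and 7.84 with scramble siRNA and at 6.13, 6.21 and 6.08 with SRSF1 siRNA, a change of -1.76 (SE 0.05, limma adjusted p 3.39e-10). NUSAP1 (ENSG00000137804), which binds microtubules near chromosomes, showed the smallest change of the group. It lay at 8.21, 8.41 and 8.37 with Lipofectamine, at 8.47, 8.45 and 8.43 with scramble siRNA and at 7.37, 7.35 and 7.30 with SRSF1 siRNA, a change of -1.11 (SE 0.06, limma adjusted p 9.03e-09). In both genes every SRSF1 siRNA sample lay below every control sample, while the controls overlapped in DLGAP5. TPX2, the activator of AURKA on the spindle, fell by 1.38, the hyaluronan-binding spindle protein HMMR fell by 1.29 and ASPM, a protein of spindle poles, fell by 1.21. HMMR passed the filter on low levels only through the control samples.

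All 5 cytokinesis genes fell, 4 of them more than 2-fold (3 with the mean of all paths). PRC1, which bundles the microtubules of the central spindle, fell by 1.61, ANLN, the contractile ring protein anillin, fell by 1.26, and RACGAP1, a centralspindlin subunit, fell by 1.13. ECT2 (ENSG00000114346), the exchange factor that activates RhoA, changed least: its levels were 8.64, 8.83 and 8.55 with Lipofectamine, 8.69, 8.66 and 8.50 with scramble siRNA and 8.12, 8.09 and 7.79 with SRSF1 siRNA. The change was -0.61 (SE 0.09, limma adjusted p 0.000111), and the lowest control sample stayed above the highest SRSF1 siRNA sample. This call too depends on the averaging, since the reference path of the highest signal changed by 0.08 and was not called (limma adjusted p 0.493). MKI67 (ENSG00000148773), which encodes the proliferation marker Ki-67 of the chromosome surface, lay at 9.22, 9.30 and 9.22 with Lipofectamine, at 9.18, 8.91 and 9.19 with scramble siRNA and at 7.90, 7.57 and 7.54 with SRSF1 siRNA. Its change was -1.43 (SE 0.10, limma adjusted p 1.04e-07), again with every SRSF1 siRNA sample below every control sample. Of 128 further genes in lists of kinetochore, anaphase, kinesin, spindle and regulator genes, the sources used here paired 1 with an ID. That gene, KIF23, the kinesin of centralspindlin, changed by -1.20 (SE 0.07, limma adjusted p 4.79e-08).

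**Figure D3:**
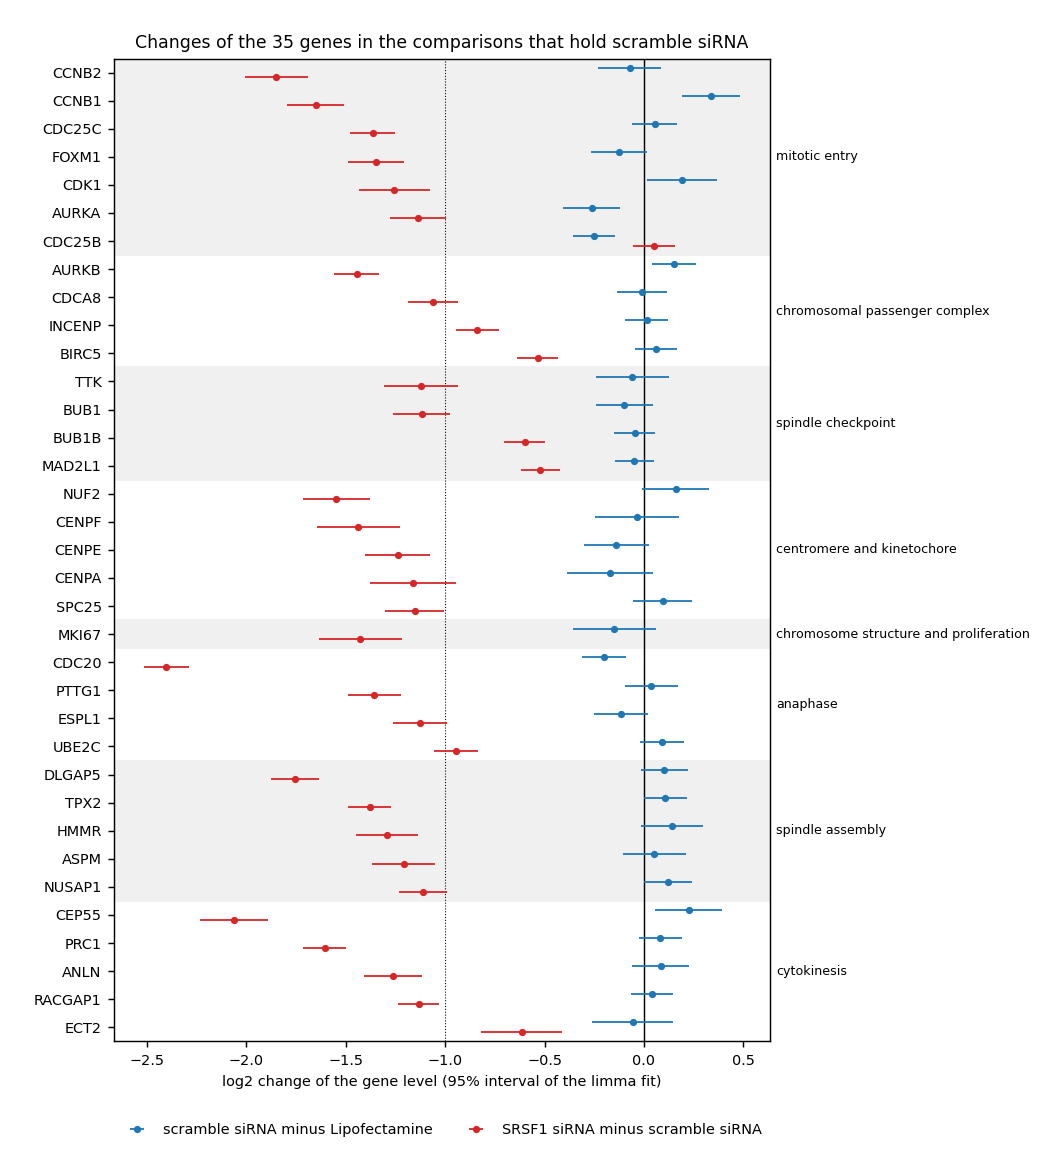
Log2 change of the gene level (x axis) of the 35 genes by role, with 95% intervals of the limma fit (red SRSF1 siRNA minus scramble siRNA, blue scramble siRNA minus Lipofectamine; solid line at 0, dotted line at -1). Red values run from -2.40 in CDC20 to 0.05 in CDC25B, and blue values from -0.26 in AURKA to 0.34 in CCNB1.

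Within each condition many of the genes shared their lowest and highest replicate. With SRSF1 siRNA, replicate 3 was the lowest in 26 of the 35 genes, against 37.0% of all genes tested, and replicate 1 the highest in 22, against 28.8%. With scramble siRNA, replicate 3 was the lowest in 19 (37.7% of all genes) and replicate 1 the highest in 20 (30.1%). With Lipofectamine, replicate 1 was the lowest in 22 (38.6%) and replicate 2 the highest in 21 (37.9%). The SD over the 3 replicates had a median over the 35 genes of 0.070 with SRSF1 siRNA, 0.063 with scramble siRNA and 0.075 with Lipofectamine, against 0.048, 0.061 and 0.075 over all genes tested. CENPF had the largest SD with SRSF1 siRNA, 0.22, with levels of 7.37, 6.98 and 7.01, and MKI67 followed with 0.20. In each of them replicate 1 was the high sample, and it still lay more than 1 log2 unit below the lowest scramble siRNA sample.

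Single reference paths were also compared, since the gene level averages them. The 35 genes had 140 distinct reference paths, and in 126 of these every replicate with SRSF1 siRNA lay below every scramble siRNA replicate, while 13 overlapped and 1, in CDC25B, lay above. Of all distinct reference paths in the series, 24.1% were lower in every replicate and 27.5% higher. In 29 of the 35 genes every reference path was lower, and the exceptions were BUB1B, SPC25, BIRC5, CDC25B, ECT2 and HMMR. Counting all 504 path rows of the 35 genes, alternative paths included, 390 (77.4%) were lower in every replicate and 7 higher, against 19.6% and 23.1% of all rows of the series.

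BIRC5 and BUB1B showed the widest gaps within a gene together with HMMR. In BIRC5 the reference path shared by 2 events had means of 9.86 ± 0.04 (SD, n = 3, scramble siRNA) and 9.90 ± 0.11 (SRSF1 siRNA), a change of 0.04 with overlapping replicates. Another reference path of BIRC5 went from 8.13 ± 0.07 to 6.50 ± 0.07, a change of -1.63 with no overlap. In BUB1B a reference path went from a mean of 8.97 with scramble siRNA to 6.92 with SRSF1 siRNA, a change of -2.05, and another from 9.15 to 7.46, a change of -1.69. A different path of BUB1B had means of 7.12 and 7.23, a change of 0.12, and a further path had 5.44 and 5.55, all with overlapping replicates. In ECT2, 8 of 9 reference paths were lower in every replicate, and the other had means of 10.04 and 10.12. The overlapping paths of HMMR and SPC25, at 3.12 and 4.49 with scramble siRNA, lay below the filter threshold in all conditions. UBE2C was lower in all 5 of its reference paths, with changes from -2.00 to -0.41. The changes of -0.53 in BIRC5, -0.60 in BUB1B, -0.61 in ECT2 and -0.95 in UBE2C are thus means over paths that did not change alike. In BIRC5, BUB1B and ECT2 paths shared by several events also weigh more in these means. With the reference path of the highest signal as the gene level, BIRC5 and ECT2 were not called, as given above, while BUB1B changed by -1.69. By contrast, the 4 reference paths of CCNB1 changed by -1.70 to -1.61, and the 10 of ANLN by -1.35 to -1.07.

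**Figure D4:**
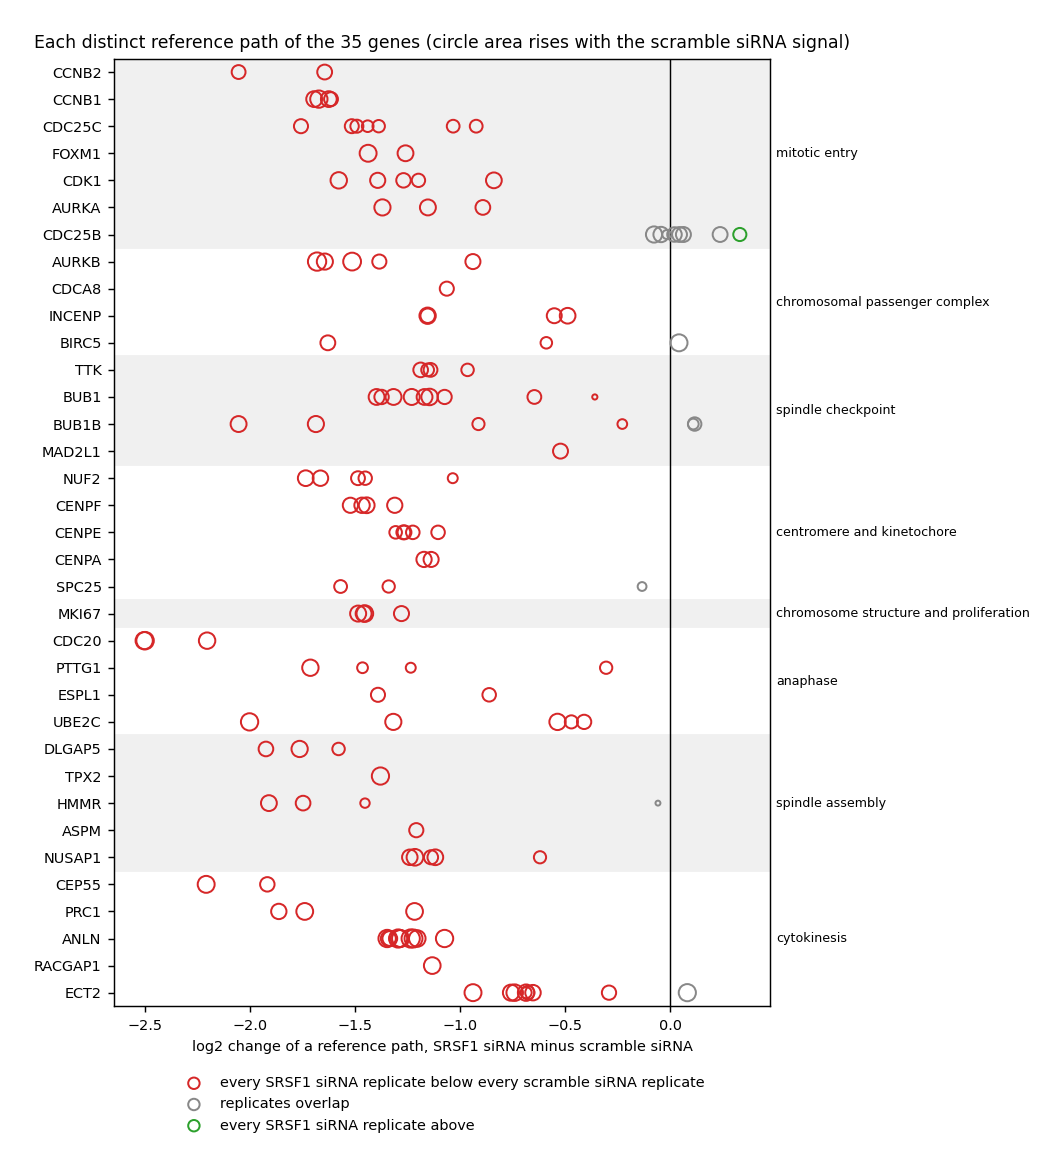
Log2 change of each distinct reference path (x axis, SRSF1 siRNA minus scramble siRNA) in the 35 genes by role; circle area rises with the scramble siRNA signal. Red circles are the 126 paths with every SRSF1 siRNA replicate below every scramble siRNA replicate, grey the 13 that overlap and green the 1 that lies above; BIRC5, BUB1B, ECT2, SPC25 and HMMR each hold a grey path beside red ones.

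Splicing events were tested as in the methods, by asking for changes of path 1 (the longer) and path 2 (the shorter) in opposite directions. Of 168 events in the 35 genes, 75 events of 25 genes passed the filter on low signals. That filter used the highest signal of each path, so a path could pass through the control samples alone. With SRSF1 siRNA against scramble siRNA, 5 of the 75 (6.67%) were called at a limma adjusted p under 0.05. Of all 25805 events tested, 8.35% were called. A gene whose whole level falls has both paths pulled down, which raises the p of this test. These shares therefore do not show whether splicing changed less often in the mitotic genes. When a path falls strongly, the summed p rests on the other path, and a small rise of that path can give a call. The test also treats the paths of an event as independent, although they come from the same samples. The types and positions of these events were not analysed here.

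The event ENSG00000135476_6 of ESPL1 had the smallest p. Its path 1 fell from 7.27, 7.10 and 7.29 with scramble siRNA to 6.0, 5.98 and 5.96 with SRSF1 siRNA, while path 2 went from 6.27, 6.22 and 6.21 to 6.80, 6.56 and 6.37. Neither path overlapped between these conditions, with changes of -1.25 and 0.35 (SE 0.08, limma adjusted p 1.77e-06), and the reference path changed by -1.39. Path 2 lay at 6.33, 6.25 and 6.42 with Lipofectamine, which overlaps SRSF1 siRNA. Of the 12 path rows of ESPL1, 10 were lower in every replicate, this path 2 was the 1 that was higher, and the other overlapped. In the event ENSG00000149503_5 of INCENP, path 1 went from 8.23, 8.2 and 8.19 to 7.68, 7.66 and 7.62, and path 2 from 7.14, 7.22 and 7.37 to 7.47, 7.44 and 7.41. The changes of -0.55 and 0.19 (SE 0.06, limma adjusted p 0.00016) again left no overlap with scramble siRNA. The reference path of this event changed by -1.155, a larger fall than that of path 1. Path 2 lay at 7.37, 7.25 and 7.44 with Lipofectamine, which overlaps SRSF1 siRNA. Against Lipofectamine the event of INCENP was not called (limma adjusted p 0.104).

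In the event ENSG00000089685_4 of BIRC5, path 2 went from 7.37, 7.70 and 7.39 with scramble siRNA to 6.02, 6.16 and 5.93 with SRSF1 siRNA, a change of -1.45. Path 1 lay at 8.86, 9.12 and 9.04 with scramble siRNA and at 9.53, 9.33 and 9.12 with SRSF1 siRNA, which overlap (change 0.31, SE 0.11, limma adjusted p 0.000779 for the event). The reference path of this event was the one that changed by 0.04. For the event ENSG00000134057_2 of CCNB1, path 2 went from 8.94, 8.87 and 8.74 to 7.10, 7.07 and 7.04, a change of -1.78, and path 1 overlapped, at 7.27, 7.31 and 7.50 against 7.53, 7.63 and 7.36 (limma adjusted p 0.021). The event ENSG00000101224_5 of CDC25B had small changes of -0.16 in path 1 and 0.16 in path 2 (SE 0.07, limma adjusted p 0.0172), with no overlap with scramble siRNA. Its reference path rose by 0.33 without overlap, more than either path changed. Against Lipofectamine this event was not called (limma adjusted p 0.194). Just outside the threshold was ENSG00000178999_22 of AURKB, where path 2 changed by -1.58 and path 1 by 0.11 (limma adjusted p 0.0778). The calls for CCNB1 and CDC25B were lost without scramble siRNA replicate 1 or 2 and without SRSF1 siRNA replicate 1 or 2, at limma adjusted p between 0.0878 and 0.245, and when the larger one-sided p was used in place of the sum, only the event of ESPL1 was called. The count was 7 without scramble siRNA replicate 3 and without SRSF1 siRNA replicate 3, each of which added the event of AURKB.

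**Figure D5:**
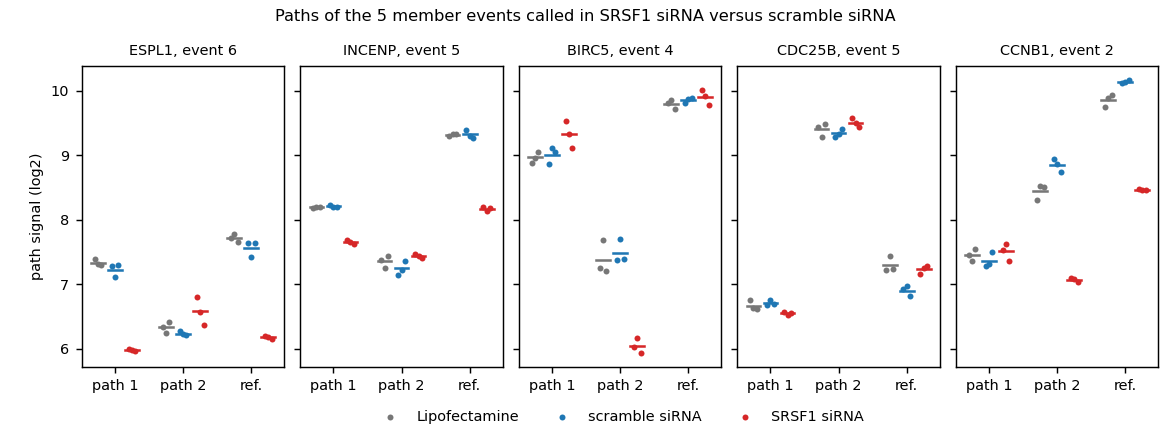
Path signal (log2, y axis) of the 5 called events in the 9 samples, for path 1, path 2 and the reference path (x axis). Points are biological replicates and bars their means (grey Lipofectamine, blue scramble siRNA, red SRSF1 siRNA). In ESPL1 and INCENP the red points lie below blue in path 1 and above in path 2; in BIRC5 and CCNB1 path 2 is lower and path 1 overlaps.

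Scramble siRNA against Lipofectamine measures what transfection of a control siRNA did to these genes. Here 3 of the 35 were called lower and 1 higher, against 9.01% and 11.1% of all genes, 31 were not called, and the median log2 change was 0.04. CDC25B changed by -0.25 (SE 0.05, limma adjusted p 0.00385), AURKA by -0.26 (SE 0.07, limma adjusted p 0.0139) and CDC20 by -0.20 (SE 0.05, limma adjusted p 0.0166). AURKA (ENSG00000087586) lay at 8.89, 9.01 and 9.10 with Lipofectamine and at 8.77, 8.62 and 8.82 with scramble siRNA. CCNB1 (ENSG00000134057) went the other way, from 8.33, 8.53 and 8.60 with Lipofectamine to 8.81, 8.81 and 8.85 with scramble siRNA, a change of 0.34 (SE 0.07, limma adjusted p 0.00415). The replicates of these 4 genes did not overlap. With the sample number as a block, which pairs the samples, CENPA was also called lower and AURKB, CDK1 and CEP55 higher, which made 4 and 4. AURKA and CDC20 were not called without Lipofectamine replicate 3 or without scramble siRNA replicate 2, which left 1 gene lower, CDC25B. CDC20 was also not called without scramble siRNA replicate 3, and 3 genes were called higher without Lipofectamine replicate 2, with CDK1 and CEP55 added. No event of the 75 was called by the limma event test (13 at an unadjusted p under 0.05), against 0.275% of all events.

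SRSF1 siRNA against Lipofectamine shares its SRSF1 siRNA samples with the main comparison and its Lipofectamine samples with the comparison of the controls, so it adds no separate samples. All 35 genes with rows were called lower and 0 higher (24.1% and 27.7% of all genes), and 27 of them fell more than 2-fold. CDC20 changed by -2.60 here and by -2.40 against scramble siRNA, CCNB1 by -1.31 and -1.65, and AURKA by -1.40 and -1.14. CDC25B changed by -0.20 (SE 0.05, limma adjusted p 0.00363), close to its change of -0.25 between scramble siRNA and Lipofectamine. Under the same limit of the event test, 3 of the 75 events were called, against 6.08% of all events. They were the same events of ESPL1 and BIRC5 and ENSG00000115163_1 of CENPA, where path 1 changed by 0.18 and path 2 by -0.23 (limma adjusted p 0.0349). The call for CENPA was lost without Lipofectamine replicate 1 or 2 and without SRSF1 siRNA replicate 2 or 3, and that for ESPL1 without SRSF1 siRNA replicate 1.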

How the data were processed

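RNA of A549 cells was measured on 27 HTA 2.0 arrays, 9 for each of 3 conditions. Probes were aligned by the authors to Ensembl transcripts (release 74 or 75, as the sources differ) with Bowtie 2.0, those that hit more than 3 genes were dropped, and the rest were grouped by the paths of splicing events. Background correction, quantile normalization and RMA in aroma.affymetrix 3.0.0 followed, so the deposited values are log2 signals per path and hybridization. Quantile normalization gives all arrays the same distribution, so a shift common to all genes would not show.

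The log2 signals were used as deposited. The 3 hybridizations of a biological replicate were averaged, reference paths were averaged per gene, and genes whose highest level reached the 25% quantile (5.77) were fitted for all 3 conditions in limma 3.58.1 (R 4.3.3; package data.table, version 1.17.8), with two-sided p-values adjusted by Benjamini-Hochberg over 12550 genes. Events with all 3 paths at or above 5.77 were tested with the method of the authors, in which one-sided p-values of path 1 and path 2 in opposite directions are summed and referred to the triangular distribution, adjusted over 25805 events. The scripts were tested on simulated data. Samples of the same number deviated together over genes, at correlations of 0.261, 0.257 and 0.303 for SRSF1 siRNA and scramble siRNA, of 0.324, 0.421 and 0.481 for scramble siRNA and Lipofectamine, and of 0.281, 0.176 and 0.395 for SRSF1 siRNA and Lipofectamine, so the numbers were taken to pair the samples. The main fits of genes and events held no term for this pairing, which entered only as the block among the alternatives. Alternatives concerned the filter, the gene level, the centring, the use of hybridizations, the block, the prior and single replicates.

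The genes, role groups, lists and tests were chosen with earlier results of these data known. By the rule for named genes, each role group gives its largest and smallest change in every sample, and every called event is named. HMMR, UBE2C, BUB1B and others described by single paths were chosen after their values were seen. SRSF1, cell type markers and the lists of other mitotic genes except KIF23 were not analysed here, since the table's IDs are not paired with their names in the sources used. The number of arrays limits the precision.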

Additional observations from a re-analysis of the deposited data

How the results depend on the processing

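The count of 34 lower genes with SRSF1 siRNA against scramble siRNA ranged from 31 to 34 over 22 alternatives, with 0 higher throughout. The low end came with the 50% quantile filter, which left CDC25C, HMMR and SPC25 untested, and the highest reference path lost BIRC5 and ECT2. With that path, an alternative chosen after seeing the data, the log2 change reversed to 0.0418 in BIRC5 and 0.0813 in ECT2 and to -0.0772 in CDC25B, none of them called. The count of 28 genes over 2-fold lower ranged from 19, with the mean of all paths, to 31. Against Lipofectamine, 32 to 35 were lower. Leaving out replicates gave 34 in each fit and 35 against Lipofectamine.

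For scramble siRNA against Lipofectamine, the 3 lower genes became 5 with each hybridization as an array, 0 with hybridization 1 alone, 9 with the replicate number of the titles as biological replicate, and 1 to 4 when a replicate was left out. The 1 higher gene became 2 with the 50% filter, with centring and with only the compared conditions fitted, 6 with each hybridization as an array, 3 with the biological replicate as a random effect, 0 with hybridization 1 alone, 8 with the other reading of the numbers, 3 with the highest reference path, and 1 to 3 when a replicate was left out. With the replicate block both the lower and the higher count became 4. The block changed no call of a gene in the other comparisons, and with SRSF1 siRNA against scramble siRNA it added 1 event of CDC25B, which made 6 events.

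The 5 called events became 3 with the 50% filter, 1 with the larger one-sided p, and 3 to 7 when a replicate was left out. Between the controls, 0 became 3 with each hybridization as an array and 0 to 1 without a replicate. Against Lipofectamine, 3 became 6 with no filter, 1 with the 50% filter and 0 with the larger one-sided p. The cause was not tested beyond what the construction of these alternatives shows.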
